A study of Neurospora crassa with 18 samples.

Results

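A set of 51 *Neurospora crassa* genes, of 9774 in the deposited table, was low in wild-type mycelia after 4 h with or without phosphate and high in wild-type mycelia starved of phosphate for 12 h. They were chosen on mean TPM (a transcript's share of its library after correction for transcript length, scaled so that a library adds up to 1000000) over the 3 libraries of a condition. The wild-type mean at 12 h had to be at least 10 TPM and at least 4 times each of the 3 wild-type means at 4 h. The mean at 0 mM phosphate after 4 h had to be under 4 times the mean at 7 mM in the same experiment, and the mean of Δ*nuc-3* cells had to be under 2 times that of wild-type cells at 12 h. Genes that the study's text names by number were left out. Of the 73 genes (0.747%) that met the 12 h condition, 19 were removed because they already reached 4-fold between 0 and 7 mM at 4 h, 2 because they were listed at 0 in both of those groups and had no ratio, and 1, NCU04482, because it was 5.18 times as high in Δ*nuc-3* cells. Since the rule used these levels, they are given as a description and no test of them is made.

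The 18 libraries came from mycelia grown for 24 h in Vogel's medium with 2% sucrose at 25 °C in constant light, washed, and shifted to Fries medium, with 3 independently inoculated cultures per condition. In Experiment 1, wild type FGSC 2489 (*mat A*) was held for 4 h at 7 mM or 0 mM phosphate. In Experiment 2, FGSC 2489 was compared with the Δ*nuc-1* strain FGSC 11448 (nuc-1::HygR, *mat a*) after 4 h at 0 mM. In Experiment 3, wild type FGSC 4200 (*mat a*) was compared with the Δ*nuc-3* strain FGSC 11356 (nuc-3::HygR, *mat a*) after 12 h at 0 mM. The gene replaced by the hygromycin cassette was low where it should be: *nuc-1* had 1.87 to 2.25 TPM in its deletion strain and 23.4 to 41.3 in the wild type beside it, and *nuc-3* had 0.397 to 1.46 TPM in its deletion strain and 108 to 227 in the wild type beside it. The 12 h time point therefore differs from the wild-type 4 h groups in time, experiment, strain, mating type, sequencer and read length at once, and these cannot be told apart. The table holds no read counts, so read depth is unknown and a value listed at 0 sets no limit.

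In fungi, lack of phosphate first activates genes that release and take up phosphate. The transcription factor NUC-1 carries out this step in *Neurospora*, and NUC-3 is a second regulator that the study characterised. Mycelium that stays without a nutrient goes on to draw on its own protein, cell wall and other reserves, and can enter asexual or sexual development. Such a shift involves secreted proteases, glycoside hydrolases, amino-acid transporters and enzymes that degrade nitrogen and sulfur compounds.

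Together the 51 genes held 0.0462% to 0.142% of the transcripts in the 9 wild-type libraries at 4 h, 0.0487% to 0.057% in the Δ*nuc-1* libraries, 0.693% to 0.952% in wild type at 12 h and 0.67% to 0.765% in Δ*nuc-3* at 12 h. The median of their means was 1.91 TPM at 7 mM, 2.19 at 0 mM in Experiment 1, 1.28 at 0 mM in Experiment 2, 1.74 in Δ*nuc-1* cells, 38.0 in wild type at 12 h and 33.8 in Δ*nuc-3* cells at 12 h. The ratio of the 12 h mean to the highest of the 3 wild-type 4 h means had a median of 9.89 and ran from 4.09 to 563. It was at least 8 for 30 genes and at least 20 for 9, and the 4 largest ran from 231 to 563. Not all were silent earlier: the highest wild-type mean at 4 h was below 1 TPM for 10 genes, 1 to 10 TPM for 27 and 10 TPM or more for 14. At 12 h, 21 genes had a mean of at least 50 TPM and 16 had less than 20.

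**Figure D1:**
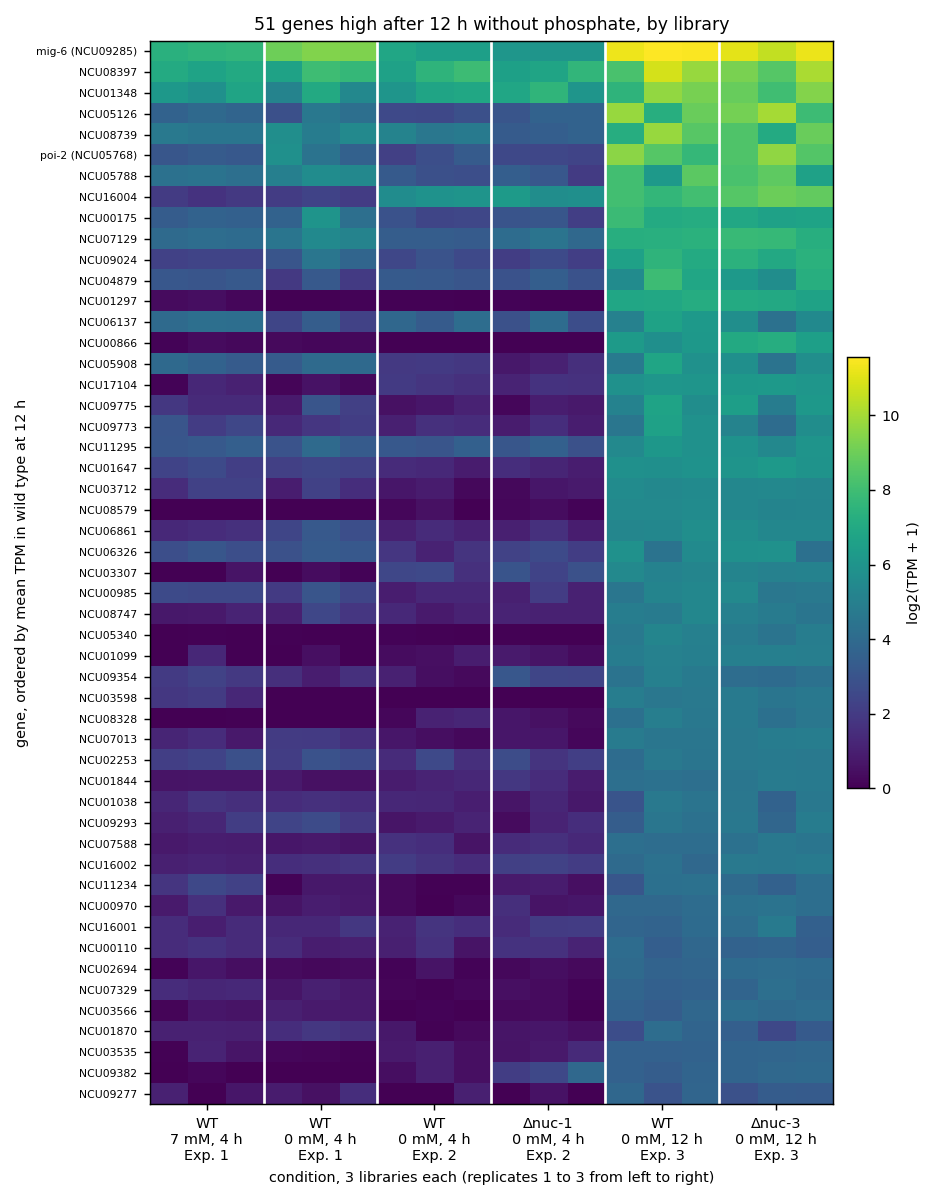
TPM of the 51 genes in each of the 18 libraries, as log2(TPM + 1), with genes ordered by their mean in wild type at 12 h and 3 libraries per condition in replicate order. The 6 libraries of Experiment 3 are the brightest in nearly every row, while the 12 libraries at 4 h stay low for most genes and are intermediate for *mig-6*, NCU08397 and NCU01348.

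The rule chose the members on these wild-type libraries, so their levels library by library are a description. For all 51 genes the lowest 12 h wild-type library lay above all 9 wild-type libraries at 4 h, which was true of 9.45% of all genes, a background the rule makes uninformative here. For 49 of 51 it also lay above the 3 Δ*nuc-1* libraries (8.76% of all genes). NCU01348 and NCU09382 were the exceptions. In 30 of 51 the lowest 12 h wild-type library was at least 4 times the highest of those 9 libraries. The other 21 met the limit on the means only. No share over all genes is given for this limit, and nothing is read from the count.

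Only 2 of the 51 carry a gene symbol in the RefSeq annotation. The more abundant of them, *mig-6* (NCU09285, chromosome VII, 75521 to 78828 on assembly NC12), was also the most abundant of the set. It had 160.2, 181 and 198 TPM at 7 mM, 511, 662 and 639 at 0 mM in Experiment 1, 113, 91.3 and 90.7 at 0 mM in Experiment 2, and 66.9, 65.5 and 65.5 in Δ*nuc-1* cells. At 12 h it reached 2494, 3041 and 2862 TPM in wild type and 2161, 1468 and 2387 in Δ*nuc-3* cells. The groups at 4 h and 12 h did not overlap, but the 12 h mean was only 4.63 times the starved mean of Experiment 1 against 28.5 times that of Experiment 2. The other named gene, *poi-2* (NCU05768, chromosome VII, 3759615 to 3760745), is one of the "plenty of it" genes known for abundant transcripts in starved tissue and for a role in sexual development. Its 12 h wild-type libraries had 753, 371 and 209 TPM and its Δ*nuc-3* libraries 335, 807 and 353, against 3.58 to 55.2 in the 9 wild-type libraries at 4 h and 4.24 to 4.71 in Δ*nuc-1* cells.

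Annotations could be read for 15 of the 51 genes, and 5 of those say only hypothetical protein. The other 10 include enzymes and a transporter that act on protein, amino acids and their breakdown products. NCU08739, annotated as endothiapepsin, an aspartic protease that fungi secrete, had 147, 882 and 381 TPM in wild type at 12 h and 333, 134 and 491 in Δ*nuc-3* cells. Its wild-type libraries at 4 h ran from 21.3 to 50.9 TPM. NCU01348, annotated as agmatinase, which splits agmatine into putrescine and urea, had 186, 824 and 587 TPM in wild type at 12 h and 35.5 to 130.1 in the wild-type libraries at 4 h. One Δ*nuc-1* library reached 188 TPM, just above the lowest 12 h library, so agmatinase was one of the 2 members whose Δ*nuc-1* libraries overlapped the 12 h wild-type range. NCU07129, annotated as an amino-acid permease, which carries amino acids into the cell, was among the steadiest, with 152, 158 and 169 TPM in wild type at 12 h against 9.14 to 43.8 at 4 h.

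The annotations name 3 further hydrolases. NCU09775, annotated as an alpha-N-arabinofuranosidase, an enzyme that removes arabinose side chains, had 34.5, 102 and 49.2 TPM in wild type at 12 h and 0.441 to 7.35 in the 9 wild-type libraries at 4 h. NCU06861, annotated as a glycosyl hydrolase, had 38.6, 39.8 and 51.7 TPM at 12 h and 1.02 to 8.29 at 4 h. NCU00985, annotated only as a hydrolase, had 22.5, 36.5 and 39.7 TPM at 12 h. All 3 were lower in each library at 4 h, and the arabinofuranosidase had the widest spread of them at 12 h.

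Annotated oxidoreductases gave both ends of the range. NCU05340, annotated as alkanesulfonate monooxygenase, which frees sulfite from organic sulfonates in bacteria, had the largest ratio of the set: 24.5, 37.0 and 31.8 TPM in wild type at 12 h against at most 0.0911 in any of the 9 wild-type libraries at 4 h, a ratio of 563. NCU06137, annotated as a cytochrome P450 of a family whose *Fusarium* member reduces nitric oxide, had the smallest ratio, 4.09. It had 32.6, 99.3 and 73.3 TPM at 12 h, and its 7 mM libraries, at 15.1 to 18 TPM, were higher than the 3.89 to 9.76 TPM of the starved libraries of the same experiment. Of the other annotated genes, NCU00866, which has a domain of unknown function, had 77.1, 53.8 and 69.9 TPM at 12 h. It was at or below 0.254 TPM at 4 h in Experiment 1 and listed at 0 in all 6 libraries of Experiment 2. NCU01870, annotated as Eno3 protein, was near the lower limit, with 5.65, 16.5 and 12.2 TPM at 12 h.

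**Figure D2:**
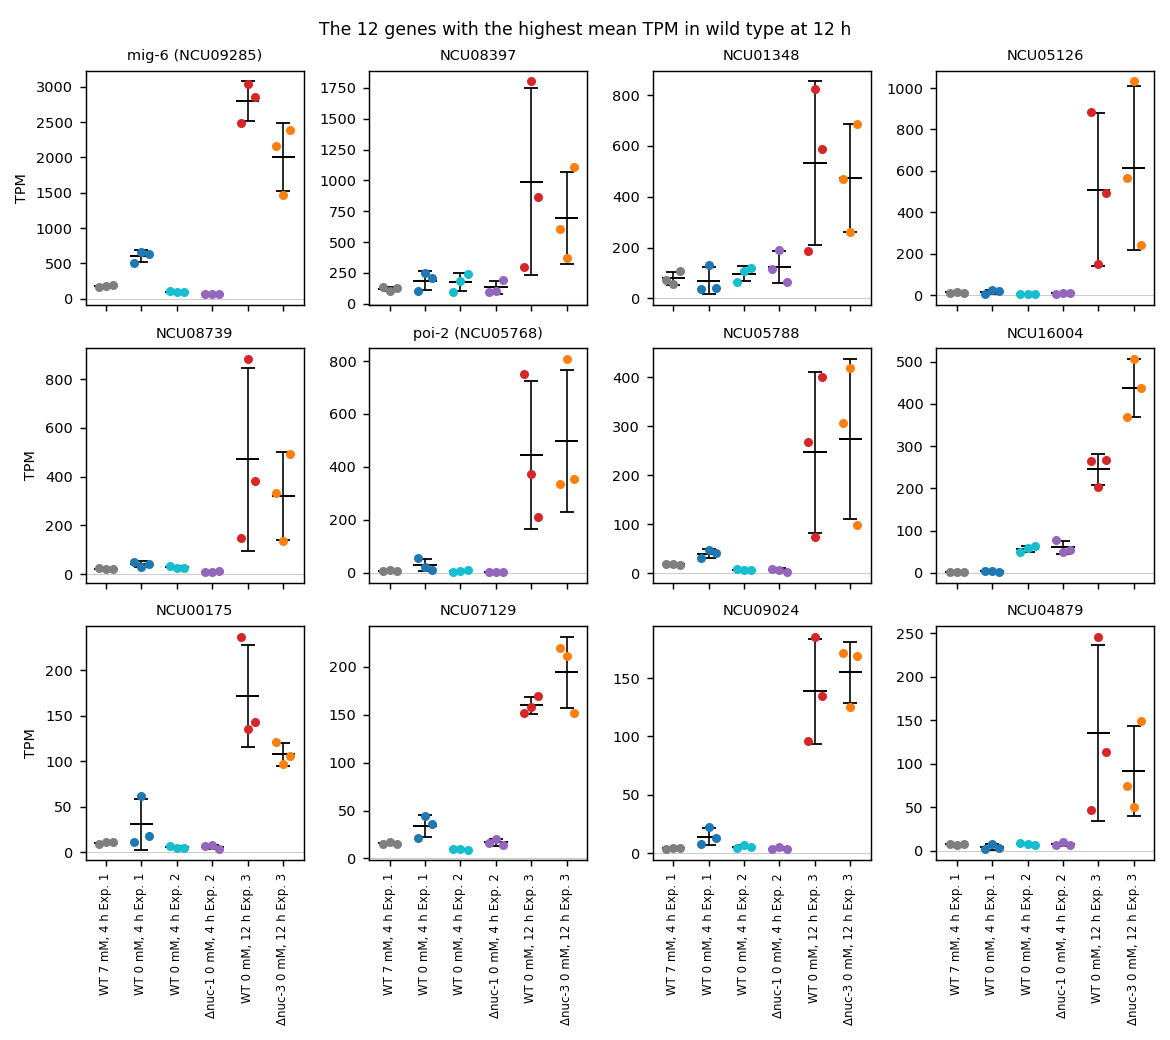
TPM per library (points) with the mean (line) and SD of 3 libraries (bars) for the 12 genes with the highest 12 h wild-type mean, each panel with its own linear axis from 0. The 12 h points of both genotypes lie above the 4 h wild-type points in each panel, and NCU08397, NCU01348, NCU05126 and NCU08739 are spread several-fold among the 12 h libraries.

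Most of the set, 36 of 51 genes, had no annotation that could be read here, and several of the most abundant and the most sharply restricted members are among these. NCU08397 had 300.0, 1804 and 869 TPM in wild type at 12 h and was already between 97.0 and 251 TPM in the wild-type libraries at 4 h. NCU05126 had 886, 149.9 and 492 TPM at 12 h against 4.68 to 23.9 at 4 h, a ratio of 32.2. NCU05788 had 268, 73.7 and 399.5 TPM at 12 h against 5.93 to 48.4. In each of these 3 genes the 12 h libraries differed by at least 5-fold among themselves, yet none reached down to the 4 h range. NCU00175, NCU09024 and NCU04879 followed with 12 h means of 172 ± 56.5, 139 ± 44.9 and 136 ± 101 TPM (SD, n = 3), from 4.32 to 62.3, 3.76 to 22.4 and 2.74 to 8.6 TPM in single wild-type libraries at 4 h.

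Some unannotated genes were close to 0 in every library at 4 h. NCU01297 had 115, 121 and 144 TPM in wild type and 133, 125 and 101 in Δ*nuc-3* cells at 12 h, and at most 0.356 TPM in any library at 4 h, a ratio of 482. NCU08579 had 43.3, 42.0 and 46.7 TPM against at most 0.431 (ratio 231). For both genes the 3 libraries of wild type at 12 h lay within a narrow band. NCU01099 (ratio 58.6), NCU02694 (38.3, annotated as hypothetical protein), NCU08328 (27.5), NCU17104 (25.4) and NCU09382 (18.4) completed the 10 largest ratios. For 8 of the 10 the ratio rests on a highest 4 h mean below 1 TPM, so its size is less certain than the 12 h level itself, while that mean was 2.49 TPM for NCU17104 and 15.8 for NCU05126. *pod-1*, which is not a member because its ratio at 4 h is undefined, was listed at 0 in all 12 libraries at 4 h and had 18.6, 28.8 and 24.5 TPM in wild type at 12 h. NCU09420, left out for the same reason, had 9.11, 36.7 and 21.3 TPM.

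Near the limits of the rule, NCU06137 and NCU11234 were just inside 4-fold at 4.09 and 4.15, and NCU06102 and NCU06719 just outside at 3.91 and 3.88. At the 10 TPM limit, NCU09277 and NCU09382 were inside at 11.0 TPM each, and NCU02329 and NCU03764 outside at 8.75 and 7.49.

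The members were not steady between the replicate cultures at 12 h, and they fell into opposing patterns. Against replicate 1, wild-type replicate 2 was at least 1.5 times as high for 19 members and at least 1.5 times as low for 7, with 25 in between, a limit chosen after the values were seen. The 19 include the agmatinase, the endothiapepsin, the arabinofuranosidase, NCU08397 and NCU04879, and replicate 3 lay between the other two for 17 of them. The 7 include *poi-2*, NCU05126, NCU05788, NCU06326 and NCU00175. In Δ*nuc-3* cells, which share no library with wild type, 18 of the 19 were higher in replicate 3 than in replicate 2, and 6 of the 7 were higher in replicate 2 than in replicate 3. NCU05126 had 567, 1033 and 243 TPM there while NCU08397 had 608, 371 and 1108. This pair of Δ*nuc-3* replicates and its direction were not set beforehand and were taken from the same values. The counts of members that went the matching way are thus a description and no independent agreement.

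The same split ran through the whole table. Of 6383 genes whose 12 h wild-type mean reached 10 TPM, 442 (6.92%) were at least 1.5 times as high in replicate 2 as in replicate 1. Another 810 (12.7%) were at least 1.5 times as low. Of these, 90.3% and 95.2% went the matching way in Δ*nuc-3* cells, by the pair of replicates taken from the values. Among the members, 37.3% were at least 1.5 times as high and 13.7% at least 1.5 times as low. The coefficient of variation of the members at 12 h had a median of 21.2%, was above 50% for 11 and below 10% for 12, and reached 79.9% for the endothiapepsin. The median SD of log2(TPM + 1) was 0.292 for the members and 0.164 for those 6383 genes. The rule chose the members on the mean of these same 12 h libraries, which a single high library can raise. Nothing is therefore read from their larger shares and spread.

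**Figure D3:**
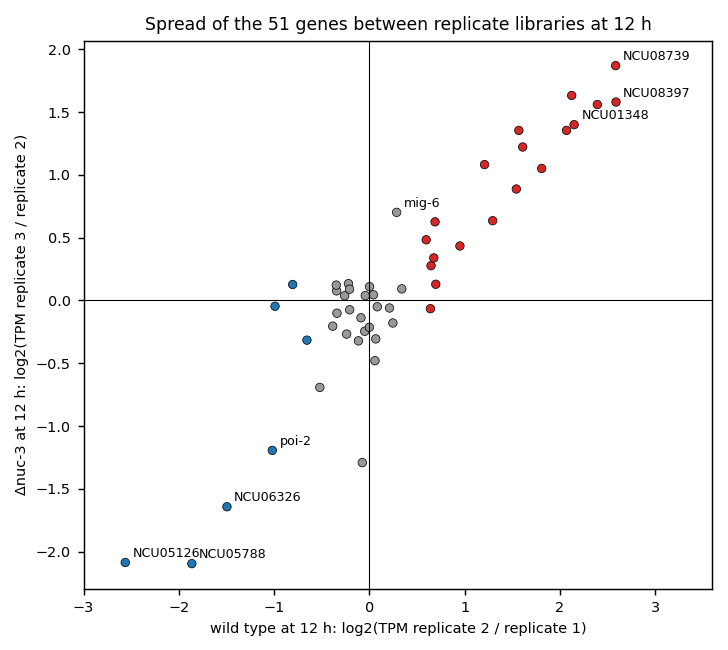
Each point is 1 of the 51 genes, placed by the log2 ratio of wild-type replicate 2 to replicate 1 (x) and of Δ*nuc-3* replicate 3 to replicate 2 (y) at 12 h, with genes at least 1.5-fold apart in wild type in red (19 higher in replicate 2) or blue (7 higher in replicate 1). NCU08739, NCU08397 and NCU01348 lie at the upper right and NCU05126, NCU05788, NCU06326 and *poi-2* at the lower left.

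The levels in Δ*nuc-3* cells at 12 h are a description, since the rule capped them at 2 times the wild-type mean and left only the lower side free. The ratio of Δ*nuc-3* to wild-type means at 12 h ran from 0.565 to 1.84 with a median of 1.01, 27 genes being above 1 and 24 below, and 43 of 51 were within 1.5-fold. None was called at 2-fold in either direction (limma adjusted p under 0.05 and a ratio of rescaled TPM of at least 2), with 0.712% of the 8005 genes tested called higher and 0.0874% lower. An unadjusted limma p under 0.05 was reached by 12 of the 51, 10 higher and 2 lower in Δ*nuc-3* cells, and by 21.7% of all genes tested, and an adjusted one by 1 member and by 1.72% of all genes. The highest ratios were those of NCU00866, at 130.2, 148 and 91.6 TPM in Δ*nuc-3* against 77.1, 53.8 and 69.9 in wild type (1.84), the mitochondrial genes NCU16004 (1.79) and NCU16002 (1.54), NCU03566 (1.41) and NCU01844 (1.38). The lowest were the cytochrome P450 gene NCU06137 (0.565), NCU09773 (0.579), NCU00175 (0.627), NCU05908 (0.637) and NCU09354 (0.651). All 3 Δ*nuc-3* libraries lay above the 3 wild-type libraries for 10 members and below for 4, against 9.55% and 12.6% of all genes. Of the 19 members that were higher in wild-type replicate 2, 14 had a lower mean in Δ*nuc-3* cells. They were picked by a high wild-type library, which raises the wild-type mean, so nothing is read from this count.

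The Δ*nuc-3* libraries thus gave a second view of the 12 h level in another *mat a* strain of the same experiment, bounded above by the rule. In all 51 genes each Δ*nuc-3* library lay above all 9 wild-type libraries at 4 h (10.4% of all genes), whose means the rule had kept low. The Δ*nuc-3* mean was at least 4 times each wild-type 4 h mean for 45 members, with a median ratio of 9.86 and a lowest of 2.31 for NCU06137. At least 10 TPM and at least 4-fold were met by 44 members and by 0.921% of all genes.

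No Δ*nuc-1* library entered the rule, but the rule kept the wild-type mean of the same experiment low, which favours a higher value in Δ*nuc-1* cells. The counts and the limma p-values of this comparison, taken from the fit over all genes, are therefore a description of the members and not an independent test of them. Of the 51 genes, 34 had at least 1 TPM in either strain and entered the fit, and 17 did not. A gene that passed this filter only through one strain had to differ, as was so for 4 genes through Δ*nuc-1* and for 1 through wild type. With limma on log2(rescaled TPM + 1), 5 of 34 were called higher at 2-fold in Δ*nuc-1* cells (14.7%, background 5.1%) and 1 lower (2.94%, background 4.48%). With TPM as deposited, which shifts the all-gene median from 0.0047 to -0.17 on the log2 scale, 2 were called higher (5.88%, background 3.7%) and 1 lower. No member was called at 4-fold with at least 10 TPM, against 1.28% higher and 0.821% lower of all genes. An unadjusted limma p under 0.05 was reached by 11 of the 34 and by 36.2% of all genes tested. The median log2 fold change of the 34 was 0.24.

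The called genes were mostly at low levels. NCU09382 had 0.355, 1.04 and 0.409 TPM in wild type and 3.29, 4.75 and 13.9 in Δ*nuc-1* cells, a 14.4-fold higher rescaled mean. Its log2 fold change was 2.30 with an SE of 0.459 (limma adjusted p = 0.00927). NCU09354 had 1.1, 0.329 and 0.217 TPM in wild type and 7.69, 4.36 and 4.11 in Δ*nuc-1* cells (11.6-fold). Its log2 fold change was 2.16 with an SE of 0.28 (limma adjusted p = 0.00204). Both genes passed the filter only through the Δ*nuc-1* libraries, where they were high, so their calls carry the limit given for such genes. Each was also called in the 12 alternative settings, among them one with no filter. Those settings kept the same genes, whose wild-type means the rule had held low, so they do not lift this limit. NCU09382 and NCU09354 were also the only members whose 3 Δ*nuc-1* libraries all lay above all 9 wild-type libraries at 4 h, as 3.99% of all genes did. The Δ*nuc-1* strain is *mat a* and its wild type *mat A*, so deletion and mating type cannot be told apart for these genes. For the other 49 members, at least 1 Δ*nuc-1* library lay inside or below the range of the *mat A* libraries at 4 h. Most genes of the table did the same, since only 3.99% had all 3 above, so nothing is read from this count.

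NCU05126 was 2.20-fold higher in Δ*nuc-1* cells, from 4.9, 4.68 and 6.06 TPM to 7.27, 11.6 and 11.3 (limma adjusted p = 0.0203). NCU06326 was 2.31-fold higher, from 2.5, 1.18 and 2.34 TPM to 3.93, 5.11 and 3.28 (limma adjusted p = 0.0311). The amino-acid permease gene NCU07129 was 2.00-fold higher, from 9.68, 9.73 and 9.14 TPM to 15.8, 20.6 and 14 (limma adjusted p = 0.00588). These 3 calls were lost with TPM as deposited and in a fit over all 18 libraries. They were also lost when wild-type replicate 1, wild-type replicate 2 or Δ*nuc-1* replicate 2 was left out. Of 12 alternatives, NCU05126 kept its call in 6, NCU06326 in 4 and NCU07129, which stood at the 2-fold limit, in 7. The endothiapepsin gene NCU08739 was lower, with 34.8, 23.3 and 25.3 TPM in wild type and 8.99, 10.1 and 11.4 in Δ*nuc-1* cells, with no overlap (0.422-fold). Its log2 fold change was -1.17 with an SE of 0.182 (limma adjusted p = 0.00403). It kept its call in 11 of 12 alternatives and lost it in a fit over all 18 libraries.

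The 12 h wild-type means were also set against these Δ*nuc-1* levels. The rule had required a 12 h mean at least 4 times that of the wild type grown beside the Δ*nuc-1* strain. The counts are therefore a description, and nothing is read from the members' larger share against that of all genes. The 12 h mean was at least 4 times the Δ*nuc-1* mean for 48 genes with a ratio and for NCU00866 and NCU03598, both listed at 0 in all 3 Δ*nuc-1* libraries, which makes 50 of 51 (7.37% of all genes met this with at least 10 TPM). NCU16004 was just past it at 4.04, and NCU09382 was not, with 11.1, 9.6 and 12.4 TPM at 12 h against 3.29 to 13.9.

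**Figure D4:**
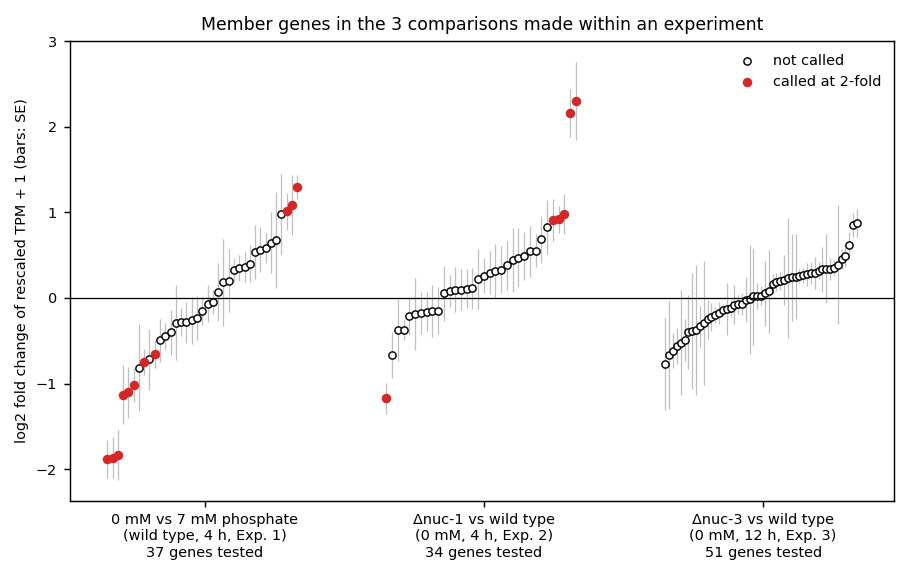
Log2 fold change of rescaled TPM + 1 with its SE (bars) for the members tested in each within-experiment comparison, ordered by size, with genes called at 2-fold in red and the others open. In Δ*nuc-1* cells 5 of 34 were called higher and 1 lower, in Δ*nuc-3* cells none of 51, and at 0 mM against 7 mM 3 of 37 higher and 8 lower.

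Phosphate starvation for 4 h did not move the members in one direction. The rule allowed up to a 4-fold rise of the deposited mean and set no lower limit, so the counts are a description. Of 37 members tested, 3 were called higher at 2-fold at 0 mM (8.11%, background 14.5%) and 8 lower (21.6%, background 11.1%). Of those called lower, NCU03598, NCU07329 and NCU11234 passed the filter only through the 7 mM libraries, so they had to be lower at 0 mM. With TPM as deposited, which moves the median of all genes to 0.41 on the log2 scale, 10 were called higher (27% of the members, 24.5% of all genes) and 4 lower (10.8% and 6.43%). The members' median log2 fold change lay below that of all genes on both scales, at -0.16 against 0.002 after rescaling and 0.21 against 0.41 as deposited. The 3 higher on both scales were *mig-6* (2.48-fold), NCU06861 (2.59-fold) and NCU09024 (2.62-fold), as ratios of rescaled means. The 4 lower on both were NCU03598, NCU06137, NCU09773 and NCU11234. NCU03598 had 2.62, 3.08 and 1.44 TPM at 7 mM, was listed at 0 in all 9 libraries at 0 mM and 4 h, and had 29.1, 22.9 and 24.9 TPM in wild type at 12 h. NCU11234 had 2.48, 4.67 and 3.64 TPM at 7 mM, 0.0767, 0.658 and 0.701 at 0 mM, and 7.52, 18.4 and 18.8 at 12 h. Both passed the filter only through the 7 mM libraries, and both were lower at 0 mM and 4 h and higher at 12 h than at 7 mM.

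Starved wild-type mycelia at 4 h were measured in Experiments 1 and 2, with the same strain, phosphate and time. By the study's account, these sets were sequenced at different centres, on different sequencers and with different read lengths. The members' levels in them are given side by side with no test. Of 37 members with at least 1 TPM in either group, 26 (70.3%) were at least 2-fold apart, against 36.1% of 8436 genes. The rule had kept both groups low, and a member that reached 1 TPM in only one of them had to differ, so nothing is read from the larger share. Over all 51, the Experiment 1 mean was at least 4 times that of Experiment 2 for 16 members and the reverse held for 8. *mig-6* was 6.15 times as high in Experiment 1, *poi-2* 4.70 times and NCU00175 5.90 times. NCU16004 was 16.5 times as high in Experiment 2, at 49.0, 58.2 and 62.9 TPM against 3.21, 3.96 and 3.16, and NCU03307 32.2 times, at 4.6, 4.92 and 2.02 TPM against 0, 0.289 and 0.0689. A ratio of 12 h to 4 h across experiments carries a difference of this kind, whose part in it was not tested. Within Experiment 1, replicate 2 of the starved libraries was the highest of the 3 for 30 of 51 members and for 26.2% of 8360 genes, and without it 65 genes met the rule in place of 51.

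**Figure D5:**
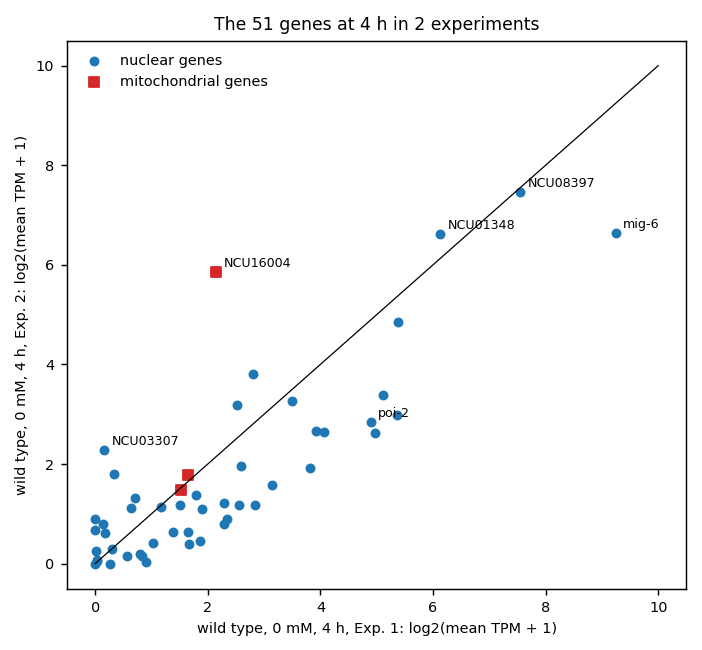
Mean of 3 wild-type libraries at 0 mM and 4 h in Experiment 1 (x) and Experiment 2 (y) for the 51 genes, as log2(mean TPM + 1), with the line of equality. *mig-6*, *poi-2* and most nuclear genes lie below the line, while the mitochondrial gene NCU16004 lies far above it.

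The mitochondrial genome, with 28 genes in the table, held 3 of the 51: NCU16001, NCU16002 and NCU16004. NCU16001 (269 to 973) and NCU16002 (973 to 1944) meet end to end and share a base, so reads at their boundary could have been split between them. NCU16004 lies at 8905 to 9636. Its 12 h wild-type libraries had 265, 203 and 266 TPM and the Δ*nuc-3* libraries 369, 506 and 439, without overlap, and the 7 mM libraries had 2.98, 2.19 and 2.74. NCU16001 and NCU16002 were low throughout, with 12 h wild-type means of 13.4 ± 1.98 and 16.1 ± 2.57 TPM (SD, n = 3). Summed TPM of all mitochondrial genes was 291 to 500.0 in Experiment 1, 916 to 1377 for the wild type of Experiment 2 and 886 to 994 for its Δ*nuc-1* strain, 1058 to 1244 for the wild type of Experiment 3 and 1493 to 1976 for its Δ*nuc-3* strain. It was thus as high at 4 h in Experiment 2 as at 12 h in wild type. Of 15 mitochondrial genes with at least 10 TPM at 12 h, 3 reached 4 times each wild-type 4 h mean, 4 reached 2 times and 9 were higher than each. The libraries were poly(A)-enriched, and the part of that step in these values was not tested.

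In the nucleus the 48 other members were scattered, with 10 each on chromosomes II and VII, 9 on I, 7 on IV, 6 on V, 4 on VI and 2 on III. The closest pair was NCU09775, the arabinofuranosidase gene (chromosome II, 4269308 to 4270336), and NCU09773 (4272699 to 4275266), with 1 annotated gene in the 2362 bases between them. NCU09773 had 22.2, 96.5 and 56.6 TPM in wild type at 12 h, highest and lowest in the same replicates as its neighbour. That order was shared by 17 of the 19 members that were higher in replicate 2. In Δ*nuc-3* cells NCU09773 had 34.7, 16.3 and 50.5 TPM, and its neighbour had 88.3, 27.8 and 71.1. Both were lowest in replicate 2 there, but they were highest in different replicates. Of the nuclear members, 4 (8.33%) lay within 120 kb of a chromosome end, as did 4.62% of nuclear genes. The ends were taken as the first base of the sequence and the end of the last annotated gene. These members were NCU09293, *mig-6* and NCU09277 at one end of chromosome VII, and NCU07129 on chromosome VI. The median gene length was 1838 bases for the members and 2124 for all genes.

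Lists of known genes showed what the 12 h mycelia shared with the 4 h ones. None of the 41 listed genes was a member, and members were only 51 of 9774 genes. Genes that the study's text names by number, the 5 phosphate genes among them, could not be members. The 8 conidiation genes, which mark asexual spore formation, summed to 4491 to 7675 TPM in wild type at 12 h, mostly from the hydrophobin gene *eas*. They summed to 5231 to 6855 in the starved libraries of Experiment 1, where the rule had kept the members low. Their sum was 166 to 227 in wild type of Experiment 2 and 14927 to 24240 in Δ*nuc-3* cells. Of the Δ*nuc-3* sum, *eas* alone had 13791 to 22878 TPM, so it mostly follows that gene. One of the 8, *con-8*, met the 12 h condition, with 694 TPM against 106 at 4 h. Each of the others had a lower mean in wild type at 12 h than in the starved libraries of Experiment 1. Among these, *con-13* was at 0.0882 TPM in wild type at 12 h. In whole mycelium, more cells of a kind and more RNA per cell cannot be told apart. The 5 phosphate genes were *nuc-2*, which acts in sensing, the permease genes *pho-4* and *pho-5*, and the phosphatase genes *pho-2* and *pho-3*. Of these, 0 reached 4-fold over each wild-type 4 h mean at 12 h, and their sum was already 10315 to 14405 TPM in the starved libraries of Experiment 1. The limit was also met by 0 of 5 carotenoid and light genes, 0 of 7 cellulose degradation genes and 0 of 4 nitrogen and amino-acid genes. Together with at least 10 TPM it was met by 0.747% of all genes, so nothing is read from these counts of 0. Of the 7 mating-type and pheromone genes, *mfa-1*, the pheromone gene of *mat a* cells, met the 12 h condition, with means of 119.8 TPM in wild type and 34.7 in Δ*nuc-3* cells at 12 h and 131 in Δ*nuc-1* cells at 4 h, and *matA-1* was listed at 0 in the wild type of Experiment 3.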

How the data were processed

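Poly(A)-enriched RNA of 18 mycelial libraries was analysed as the deposited TPM, which the authors made with Salmon version 1.4.0 on the transcripts of *N. crassa* OR74A genome version 12. Each library adds up to 1000000 TPM, so no counts or depths were used, and precision is judged from the spread of 3 replicate libraries. Transcript rows (10697) were summed per gene (9774), and 9773 genes matched RefSeq positions on NC12. Groups followed the deposited labels.

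Within each comparison TPM were rescaled by median of ratios over 6 libraries. Genes reaching a mean of 1 TPM on one side or the other were tested by limma (version 3.58.1, trend, under R version 4.3.3) on log2(TPM + 1), and p was adjusted by Benjamini-Hochberg over every gene tested. A 2-fold call needed an adjusted p under 0.05 and a ratio of rescaled means of at least 2. An exact permutation test of 3 against 3 cannot go below 0.1. The fit was tested on simulated data. Values in the text are deposited TPM unless called rescaled.

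The members, gene lists and rule for named genes were chosen with earlier results of these data known. Named were the most abundant members, the largest ratios, genes called in Δ*nuc-1*, the extremes of Δ*nuc-3*, neighbours, annotated genes and genes at the limits. Annotations were read from the part of the study's datasets at hand (3449 genes). Alternatives were other scalings, an added 0.1, no filter, the replicate number as a term, a fit over 18 libraries and each library left out. Python version 3.11.15, pandas version 2.3.3, NumPy version 2.4.6 and matplotlib version 3.10.9 were used. Sequences were not analysed here.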

Additional observations from a re-analysis of the deposited data

How the results depend on the processing

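The 51 members became 30 when every library had to be 4-fold apart and 30 at 8-fold, and 47 to 65 with each library left out, with 32 genes in every such set. With rescaled TPM 56 genes met the rule, 47 of them members. In Δ*nuc-1* against wild type, 5 members were called higher and 1 lower at 2-fold. This became 2 and 1 with TPM as deposited, 3 and 0 in one fit over 18 libraries, 0 and 0 at 4-fold with at least 10 TPM, and 2 to 5 and 1 to 2 with each library left out. At 0 mM against 7 mM, 3 higher and 8 lower became 10 and 4 with TPM as deposited, and the median log2 fold change went from -0.16 to 0.21 while that of all genes went from 0.002 to 0.41. Leaving out one library at a time gave 2 to 5 higher, 6 to 9 lower and medians of -0.32 to 0.02. The Δ*nuc-3* median of 0.03 stayed between -0.06 and 0.24, with 0 members called in each setting. The cause of these changes was not tested.

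Same-numbered libraries did not deviate together (correlations of deviations -0.16, -0.68 and -0.05 in Experiment 3, -0.06, -0.03 and -0.1 in Experiment 2, and 0.1, 0.03 and -0.14 in Experiment 1), so the numbers were not taken as pairs. In Experiment 3 each wild-type library correlated best with a Δ*nuc-3* library of another number (replicate 1 with 2 at 0.68, 2 with 3 at 0.67 and 3 with 1 at 0.27). The labels give no such pairing and none was fitted, so the Δ*nuc-3* values come from an unpaired fit. With the replicate number as a block, 4 members were called higher and 1 lower in Δ*nuc-1*, 0 in Δ*nuc-3*, and 3 higher and 8 lower at 0 mM. Over all genes the block cut the Δ*nuc-3* calls at 2-fold from 64 to 3. Promoter windows were not run, because no sequence was at hand. Without depth, levels below 1 TPM have unknown precision.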
